A study of Mus musculus with 6 samples.

Results

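Integrins and laminins were compared between a pair of neurosphere cultures, as every gene whose symbol names an integrin alpha subunit (Itga), an integrin beta subunit from Itgb1 to Itgb8, or a laminin alpha, beta or gamma chain (Lama, Lamb, Lamc). The rule gave 34 genes of the 18194 genes named on the arrays: 16 integrin alpha subunits, 8 integrin beta subunits and 10 laminin chains. It looks at the symbol alone and used no measured value, although the members were chosen with earlier results of these data known.

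Neurospheres are floating spheres of dividing cells. Those studied here were grown out of crest-derived tissues of C57BL/6J mice and profiled at passage 3 on Affymetrix mouse expression arrays, with 3 arrays per culture. The culture called rNCSC here, which the sample titles give as rNCSC-2 without saying what the 2 stands for, was started from the dorsal root ganglia, which hold the sensory neurons of the trunk, of embryos at day 12.5. Its cells are described in the labels as reprogrammed in the sphere culture and able to form cells of the central nervous system (CNS). The culture called pNCSC came from the palate of adult mice, 6 to 8 weeks old, with tissue of 3 to 5 mice. Both were kept in serum-free medium with basic FGF at 20 or 40 ng/ml, EGF at 20 ng/ml, heparin, 1% N2 and B27 at 1% or 3%. Which culture received which of the FGF and B27 levels is not stated in the labels. Tissue of origin, donor age and culture therefore differ together and cannot be told apart. No transgene or sorting step is named, and no uncultured tissue was analysed here. The labels do not say whether the 3 arrays of a culture stand for separate spheres, cultures or animals. A p-value here therefore weighs the difference against the spread of these arrays, which may be technical.

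Integrins are cell surface receptors made of an alpha and a beta subunit, and the pair decides what the receptor binds. Some pairs bind collagens, others bind laminins, and a large group binds the Arg-Gly-Asp motif of fibronectin, vitronectin and related proteins. Laminins are the cross-shaped trimers of an alpha, a beta and a gamma chain that form the first layer of a basement membrane. Neural progenitors and migrating neural crest cells both use integrins to hold on to laminin and fibronectin.

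Transcripts of these families were mostly higher in the palate culture. Of the 34 genes, 21 reached a log2 value of 4 on at least 3 of the 6 arrays and were tested with limma, as were 11722 genes in all, and 13 were too dim. Among the 21, 16 were higher in pNCSC, 1 was higher in rNCSC and 4 did not pass the Benjamini-Hochberg adjusted threshold of 0.05. Most genes on these arrays differed between the cultures. Over all tested genes 73.3% passed, 40.2% higher in rNCSC and 33.1% higher in pNCSC, so the 17 of 21 that passed is a share near that of all genes. Higher in pNCSC were 16 of 21, beside the 33.1% of all tested genes. The median difference, rNCSC minus pNCSC on the log2 scale, was -1.65 over the 21 members and 0.12 over all tested genes. The array values of the 2 cultures did not overlap in 17 of the 21 members, against 78.2% of all tested genes. A member could be tested because it was bright in 1 culture only: Itga5, Itgb2, Itgb3 and Lama2 were under 4 on all rNCSC arrays, and none of the 21 was under 4 on all pNCSC arrays. With arrays under 4 set to 4, the median was -1.38, and over the measured values of all 34 genes it was -0.66. Values are from whole cultures, in which fewer cells of a type and less RNA per cell cannot be told apart.

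The exception was Itgb8, the beta subunit that pairs with alphaV and binds latent TGF-beta, which was 3.24-fold higher in rNCSC. Among the genes of the opposite direction were Lama4, Itga5, Itga8 and Itga1, higher in pNCSC by at least 51.8-fold, at least 44.5-fold, 38.4-fold and at least 24.0-fold in that order. Itga6 did not pass the test, with a difference of 0.10, and Itgav differed 1.56-fold.

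To show the starts of integrin and laminin genes with large differences in each direction, chosen after the values were seen, the 250 bases before the RefSeq gene start are given for Itga5 (chr15:103366792-103367041, minus strand), Itga8 (chr2:12301945-12302194, minus strand) and Lamb1 (chr12:31265043-31265292, plus strand), which were higher in pNCSC, and for Itgb8 (chr12:119238277-119238526, minus strand), which was higher in rNCSC. They are from the RefSeq table of build GRCm38.p6, are written 5′ to 3′ on the strand of the gene, and carry in capitals each GC box (GGGCGG, or CCGCCC where it lies on the opposite strand).
Itga5: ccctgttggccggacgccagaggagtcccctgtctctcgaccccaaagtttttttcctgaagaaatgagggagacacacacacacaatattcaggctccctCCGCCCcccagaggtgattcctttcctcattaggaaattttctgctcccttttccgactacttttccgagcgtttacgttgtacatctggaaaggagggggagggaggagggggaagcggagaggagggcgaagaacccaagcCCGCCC
Itga8: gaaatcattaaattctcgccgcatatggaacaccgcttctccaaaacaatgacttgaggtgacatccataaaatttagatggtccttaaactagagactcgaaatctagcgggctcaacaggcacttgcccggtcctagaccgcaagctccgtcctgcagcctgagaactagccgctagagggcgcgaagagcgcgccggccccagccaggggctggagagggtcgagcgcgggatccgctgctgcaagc
Lamb1: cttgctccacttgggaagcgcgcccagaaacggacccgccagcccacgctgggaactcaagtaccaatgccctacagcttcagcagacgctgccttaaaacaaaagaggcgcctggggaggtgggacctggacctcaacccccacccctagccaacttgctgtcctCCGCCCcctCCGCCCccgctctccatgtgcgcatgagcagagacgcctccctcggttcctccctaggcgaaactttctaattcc
Itgb8: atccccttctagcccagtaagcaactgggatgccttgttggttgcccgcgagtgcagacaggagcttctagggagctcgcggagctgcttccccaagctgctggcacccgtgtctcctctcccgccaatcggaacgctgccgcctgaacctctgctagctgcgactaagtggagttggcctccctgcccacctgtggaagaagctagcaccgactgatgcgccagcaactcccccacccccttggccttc

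Short motifs were searched on both strands of such windows: the GC box GGGCGG, the TATA box TATAAA, the AP-1 motif TGANTCA and the TEAD motif GGAATG. The table held 25 windows for 22 of the 34 genes. The GC box was in 9 of the 25 windows and in 32.7% of all 32851 windows of the table. In Itga5 it began 149 and 6 bases before the start, in Lamb1 84 and 75 bases before it, and it was not found in the windows of Itga8 and Itgb8. The TATA box was in 0 of 25 windows, against 12.4% of all. The AP-1 motif was in 1 window, that of Itgax, against 6.75% of all, and the TEAD motif was in the windows of Itga10, Itgb1 and Lamb3, against 12.6% of all. GC content was 55.6% in the Itga5 window, 56.4% in Itga8, 62.4% in Itgb8 and 62% in Lamb1, with a median of 57.6% over the members' windows and 52.4% over all. A match describes letters and not a used site, and a missing match says only that the letters are not in this window.

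The 6 arrays fell into their labelled groups. Over the named probe sets, arrays of 1 culture correlated at 0.988 to 0.996 and arrays of different cultures at 0.818 to 0.830, and the first principal component, which separated the cultures, held 94.6% of the variance. On the second, with 2.25%, pNCSC replicate 1 lay apart from the other pNCSC arrays. The replicate SD of tested genes had a median of 0.16 in rNCSC and 0.19 in pNCSC. All 9 measured CNS progenitor markers, Sox2, Nes and Olig2 among them, reached 4 on all rNCSC arrays. Their summed level was 15.92 to 16.05 (log2) there, against 10.03 to 10.58 in pNCSC. Levels of a list were summed on the linear scale, so its brightest genes weigh most. In pNCSC 4 of them, Sox2 and Nes included, also reached 4 on all arrays, and 5 were under 4 on all. All 8 mesenchymal markers reached 4 on all pNCSC arrays, with a summed level of 15.67 to 16.05 against 7.60 to 9.38 in rNCSC, where 5 of them were under 4 on all arrays. The mural list, of pericyte and smooth muscle genes, summed to 15.05 to 15.26 in pNCSC and 8.70 to 9.48 in rNCSC. It was mixed: 8 of 10 markers were at 4 on all pNCSC arrays, and 4 of 10 were so on all rNCSC arrays. Of 8 tested, 6 were higher in pNCSC and 2, Cspg4 and Notch3, did not pass. Of Schwann cell and crest markers, Sox10 and Ngfr were under 4 on all rNCSC arrays and above it on all pNCSC arrays. Of the 8 measured, 4 reached 4 on all rNCSC arrays, Cdh19 and Pmp22 among them, and 7 did so on all pNCSC arrays. The 7 tested were all higher in pNCSC, and Mbp, not tested, reached 4 on 2 rNCSC arrays only. The list summed to 9.20 to 10.55 in rNCSC and 11.63 to 12.16 in pNCSC. The part of any of these cell types in the integrin and laminin differences was not tested.

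Among the alpha subunits, 10 of 16 were tested, 7 were higher in pNCSC, 0 were higher in rNCSC and 3 did not pass, with a median difference of -0.81. With arrays under 4 set to 4 the median was -0.80, and over the measured values of all 16 subunits it was -0.52. The share that passed, 70%, was near the 73.3% of all tested genes, of which 33.1% were higher in pNCSC. Itga5, Itga8 and Itgav, of the class that recognises the Arg-Gly-Asp motif, were all higher in pNCSC. Itga5, the alpha chain of the main fibronectin receptor, measured 2.97, 3.46 and 3.18 on the rNCSC arrays and 9.38, 9.50 and 9.55 on the pNCSC arrays (log2). It was below the level of 4 throughout rNCSC and at least 44.5-fold higher in pNCSC, a log2 difference of -5.48 with the rNCSC arrays set to 4 (limma adjusted p of the measured values = 2.3e-07). Itga8, whose pair with beta1 binds nephronectin and tenascin, measured 6.69, 7.84 and 5.01 in rNCSC and 11.99, 11.55 and 11.79 in pNCSC. The groups lay far apart although the rNCSC arrays spread widely (SD 1.43, n = 3). The difference was -5.26 (SE 0.66, limma adjusted p = 0.00037), which is 38.4-fold, 60.9-fold without rNCSC replicate 2 and 22.8-fold without rNCSC replicate 3. Itgav, the partner of several beta subunits, was high everywhere, at 11.83, 12.18 and 12.18 in rNCSC and 12.55, 12.76 and 12.80 in pNCSC. Its groups did not overlap, and it was 1.56-fold higher in pNCSC (difference -0.64, SE 0.15, limma adjusted p = 0.0065). Itga2b, the platelet alpha chain, was under 4 on all 6 arrays, with a highest value of 3.97, and was not tested.

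**Figure D1:**
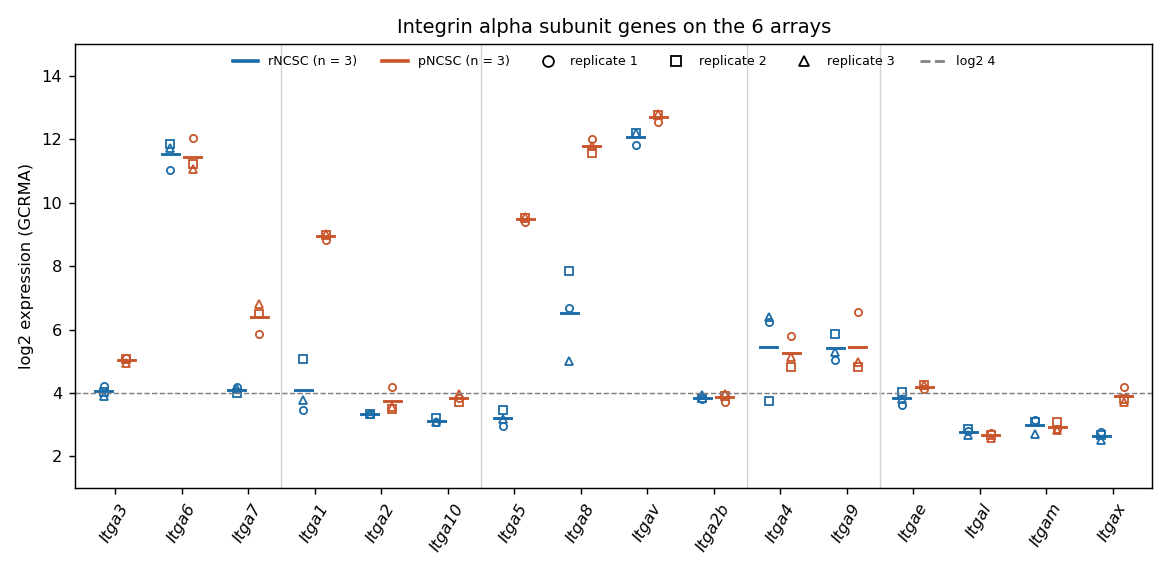
Log2 value of each integrin alpha gene on each array, with circles, squares and triangles for replicates 1, 2 and 3, bars for group means, a dashed line at 4 and vertical lines between classes. Itga5, Itga8 and Itga1 show the widest gaps between the cultures, and the Itga6 points of both cultures lie between 11.02 and 12.04.

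Of the collagen-binding alpha subunits, Itga1 alone was tested. It measured 3.46, 5.06 and 3.78 in rNCSC and 8.81, 8.99 and 9.02 in pNCSC, so that the brightest rNCSC array was still well below every pNCSC array. It was at least 24.0-fold higher in pNCSC (measured difference -4.84, SE 0.40, limma adjusted p = 4.9e-05). Itga2 reached 4 on 1 array, pNCSC replicate 1, at 4.18, and Itga10 stayed under 4 on all 6 arrays, with a highest value of 3.97.

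Of the laminin-binding alpha subunits, Itga3 and Itga7 were higher in pNCSC and Itga6 did not pass. Itga6, a common surface marker of neural stem cells, was bright on all arrays, at 11.02, 11.85 and 11.73 in rNCSC and 12.04, 11.22 and 11.06 in pNCSC. The groups overlapped, and the difference of 0.10 (95% interval -0.68 to 0.88, limma adjusted p = 0.79) did not pass. Itga7, the laminin receptor subunit known from muscle, measured 4.20, 4.01 and 4.11 in rNCSC and 5.87, 6.50 and 6.81 in pNCSC. It sat close to the level of 4 in rNCSC and was 4.87-fold higher in pNCSC (difference -2.29, SE 0.24, limma adjusted p = 0.00016). Itga3, which favours laminins with an alpha3 or alpha5 chain, measured 4.23, 4.02 and 3.92 in rNCSC and 5.10, 5.06 and 4.95 in pNCSC. It was dim in both cultures and at least 1.94-fold higher in pNCSC (measured difference -0.98, SE 0.13, limma adjusted p = 0.00042). The call rests on 1 of 3 probe sets. The others, under 4 on all arrays and not tested, differed by -0.08 and -0.05.

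Itga4 and Itga9, the subunits that bind fibronectin splice forms, VCAM-1 and tenascin, did not pass the test. Itga4 measured 6.23, 3.74 and 6.41 in rNCSC and 5.79, 4.83 and 5.15 in pNCSC. The rNCSC replicate 2 array lay far below the other rNCSC arrays, and the difference of 0.21 (95% interval -1.51 to 1.92, limma adjusted p = 0.81) turned into a call for rNCSC without that array (1.07, adjusted p = 0.0193). Itga9 measured 5.05, 5.87 and 5.31 in rNCSC and 6.54, 4.82 and 4.98 in pNCSC. Its ranges overlapped, the difference was -0.03 (95% interval -1.18 to 1.11, limma adjusted p = 0.95), and the intervals of both genes leave room for a difference of more than 2-fold in either direction.

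The alpha subunits of leukocytes were close to or under the level of 4. Itgae, the partner of beta7, measured 3.63, 4.04 and 3.82 in rNCSC and 4.14, 4.24 and 4.24 in pNCSC. It was at least 1.14-fold higher in pNCSC (measured difference -0.37, SE 0.14, limma adjusted p = 0.043). The call was lost with either rescaling of the arrays (adjusted p = 0.0802 and 0.0614) and without any one of 5 arrays (adjusted p from 0.0527 to 0.138). Its other probe set, under 4 on all arrays and not tested, differed by -0.05. Itgal and Itgam were under 4 on all 6 arrays, with highest values of 2.87 and 3.16, and Itgax reached 4 on 1 array, pNCSC replicate 1, at 4.20.

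Among the beta subunits, 5 of 8 were tested, 4 were higher in pNCSC and 1 was higher in rNCSC, with a median difference of -1.50. With arrays under 4 set to 4 the median was -1.08, and over the measured values of all 8 subunits it was -0.88. All 5 passed, beside 73.3% of all tested genes, of which 33.1% were higher in pNCSC. Itgb1, the common partner of the collagen, laminin and fibronectin receptors, was bright on all arrays, at 10.91, 11.04 and 10.84 in rNCSC and 11.96, 11.94 and 12.12 in pNCSC. The groups were tight and separate, and Itgb1 was 2.11-fold higher in pNCSC (difference -1.08, SE 0.12, limma adjusted p = 0.00018). Its probe sets did not all show this: of 5 tested, 3 were higher in pNCSC and 2 did not pass, with differences of 0.03 and 0.11. Of the 3 alphaV partners tested, Itgb5 and Itgb3 went with pNCSC and Itgb8 with rNCSC. Itgb5, part of a vitronectin receptor, measured 7.13, 5.78 and 7.49 in rNCSC and 10.96, 10.94 and 10.92 in pNCSC. The pNCSC arrays were almost equal and all above rNCSC, a 17.6-fold difference (-4.14 on the log2 scale, SE 0.42, limma adjusted p = 0.00013). Itgb3 measured 2.65, 2.51 and 2.60 in rNCSC, under the level of 4, and 6.98, 4.63 and 4.75 in pNCSC. Replicate 1 was much the highest of the pNCSC arrays: Itgb3 was at least 2.74-fold higher in pNCSC (limma adjusted p of the measured values = 0.0046), and at least 1.61-fold without that array. Itgb8 measured 12.98, 12.78 and 13.02 in rNCSC and 10.98, 11.16 and 11.56 in pNCSC. It was bright in both cultures, and every rNCSC array was above every pNCSC array (difference 1.69, 95% interval 1.27 to 2.12, limma adjusted p = 0.00015). It rests on 1 probe set.

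**Figure D2:**
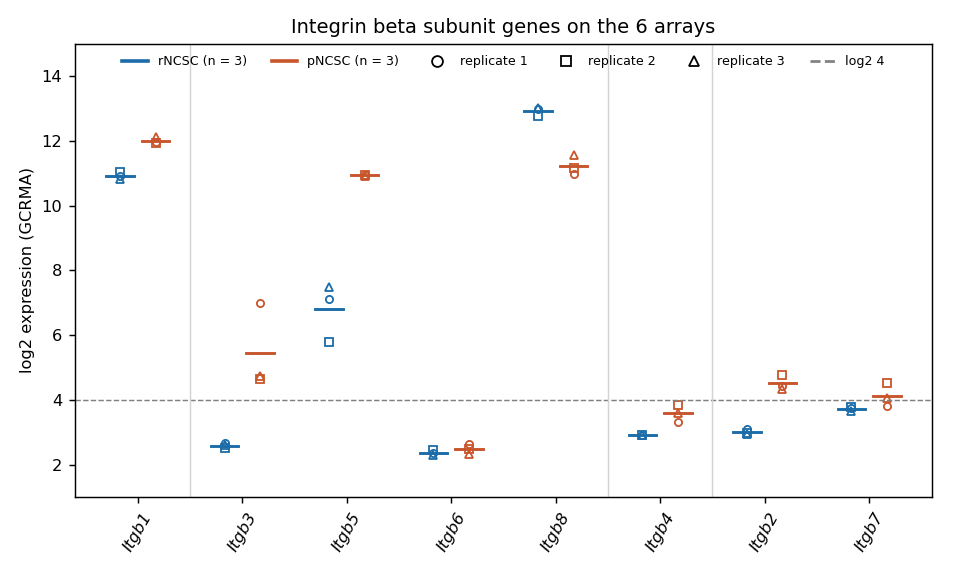
Log2 value of each integrin beta gene on each array, with circles, squares and triangles for replicates 1, 2 and 3, bars for group means, a dashed line at 4 and vertical lines between classes. Itgb8 is the only tested beta subunit with its rNCSC points (12.78 to 13.02) above its pNCSC points (10.98 to 11.56).

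Itgb2, the beta chain of leukocyte integrins, measured 3.10, 2.98 and 2.95 in rNCSC and 4.42, 4.77 and 4.34 in pNCSC, at least 1.42-fold higher in pNCSC (limma adjusted p of the measured values = 0.00011). Itgb7, the other leukocyte beta chain, measured 3.80, 4.52 and 4.06 in pNCSC and was not tested. The summed leukocyte markers were also higher in pNCSC, a sum in which the brightest genes weigh most. Of 11 measured markers, 4 were tested, and all 4 were higher in pNCSC. The list summed to 10.47 to 11.66 (log2) in pNCSC and 6.58 to 6.74 in rNCSC, Cd14 measured 11.19, 9.10 and 9.34 in pNCSC, and 5 of 11 markers, Ptprc, Csf1r and Cd3e among them, were under 4 on all arrays of both cultures. The mast cell list summed to 7.98, 11.07 and 12.47 on the pNCSC arrays, with Cpa3 at 6.45, 10.53 and 11.82, and to 6.45 to 7.00 in rNCSC. Of its 10 markers, 5 were tested, 4 were higher in pNCSC and Kit did not pass. Kit measured 5.80, 4.98 and 4.05 in rNCSC and 4.25, 5.11 and 6.29 in pNCSC. The other 9 were under 4 on all rNCSC arrays, and 5 of the 10 reached 4 on all pNCSC arrays. The part of such cells in the Itgb2, Itgae and Itgb7 values was not tested. Itgb4, the partner of alpha6 in the hemidesmosomes of keratinocytes, had a highest value of 3.85, and Itgb6, an epithelial partner of alphaV, of 2.63, so neither was tested. The keratinocyte list was mixed: 6 of 12 markers were tested, 3 were higher in pNCSC (Perp, Epcam and Dsp), 1 was higher in rNCSC (Krt10) and 2 did not pass. Perp measured 6.42, 9.80 and 9.69 in pNCSC and was at least 24.9-fold higher there (limma adjusted p = 0.00189), Epcam was 2.38-fold higher, and Krt14 and Cdh1 were under 4 on all arrays. The part of such cells in the values of the epithelial integrins was not tested.

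Among the laminin chains, 6 of 10 were tested, 5 were higher in pNCSC, 0 were higher in rNCSC and 1 did not pass, with a median difference of -2.68. With arrays under 4 set to 4 the median was -2.18, and over the measured values of all 10 chains it was -1.04. The share that passed, 83.3%, stood beside 73.3% of all tested genes, of which 33.1% were higher in pNCSC. The beta1 and gamma1 chains, which form the arms of the most widespread laminins, were present in both cultures. Lamb1 measured 8.56, 8.96 and 8.56 in rNCSC and 12.55, 12.22 and 12.64 in pNCSC, 13.7-fold higher in pNCSC (difference -3.78, SE 0.17, limma adjusted p = 3.4e-06). Lamc1 measured 5.72, 6.89 and 6.44 in rNCSC and 9.11, 9.04 and 9.04 in pNCSC, 6.55-fold higher in pNCSC (difference -2.71, SE 0.28, limma adjusted p = 0.00016). Neither gene's groups overlapped, and the rNCSC arrays of Lamc1 spread more (SD 0.59, n = 3) than its pNCSC arrays (SD 0.04, n = 3). Lamb2, the beta chain of synaptic and kidney laminins, measured 6.19, 6.56 and 6.27 in rNCSC and 8.27, 7.82 and 7.87 in pNCSC. It was again lower on every rNCSC array, by 3.13-fold (difference -1.65, SE 0.17, limma adjusted p = 0.00015).

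Of the alpha chains, which carry the main integrin binding sites of a laminin, Lama4 and Lama2 were higher in pNCSC and Lama5 did not pass. Lama4, of vessel and mesenchymal laminins, measured 5.05, 2.99 and 3.13 in rNCSC and 9.88, 10.44 and 9.81 in pNCSC. In rNCSC it reached 4 on replicate 1 only, and it was at least 51.8-fold higher in pNCSC (measured difference -6.32, SE 0.55, limma adjusted p = 6.3e-05). Lama2, the chain of muscle and Schwann cell laminin, measured 2.63, 2.93 and 2.64 in rNCSC and 6.05, 5.16 and 4.92 in pNCSC. It was under 4 on every rNCSC array and at least 2.60-fold higher in pNCSC (limma adjusted p of the measured values = 0.00021). Lama5 measured 4.37, 5.17 and 4.94 in rNCSC and 5.34, 5.09 and 5.36 in pNCSC. Its groups overlapped and the difference of -0.44 (95% interval -0.96 to 0.09, limma adjusted p = 0.11) did not pass. It passed for pNCSC without rNCSC replicate 2 (-0.61, adjusted p = 0.0422) and with array weights (-0.55, adjusted p = 0.0254). Those weights rested mostly on pNCSC replicate 3 within pNCSC (5.30, against 0.30 and 0.69 for replicates 1 and 2). The other chains stayed close to the level of 4 or below it: Lama1 had a highest value of 3.92, Lama3 of 4.13, Lamb3 of 3.45 and Lamc3 of 3.74, and none was tested.

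**Figure D3:**
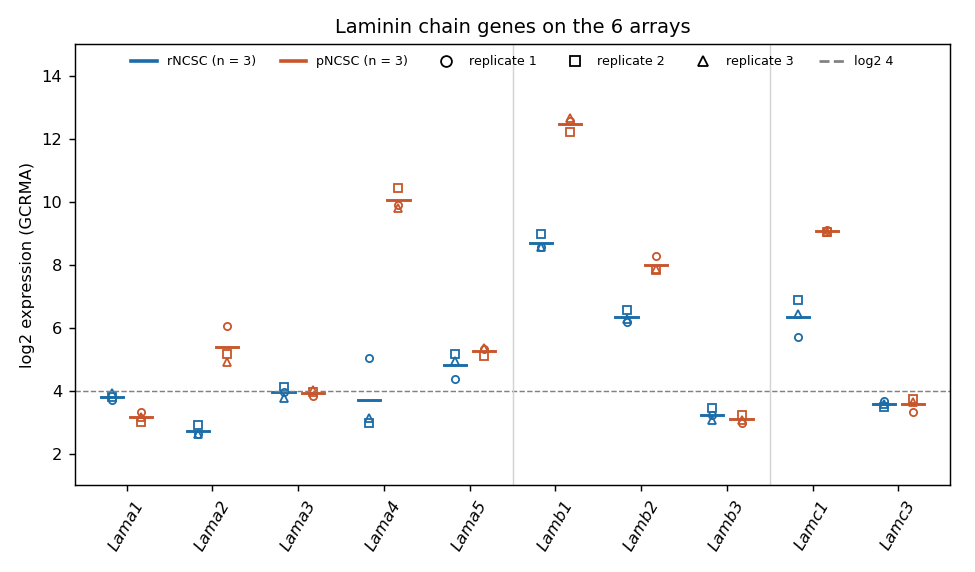
Log2 value of each laminin gene on each array, with circles, squares and triangles for replicates 1, 2 and 3, bars for group means, a dashed line at 4 and vertical lines between alpha, beta and gamma chains. All 5 chains that passed lie higher in pNCSC, and the Lama5 points of the cultures overlap between 5.09 and 5.17.

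**Figure D4:**
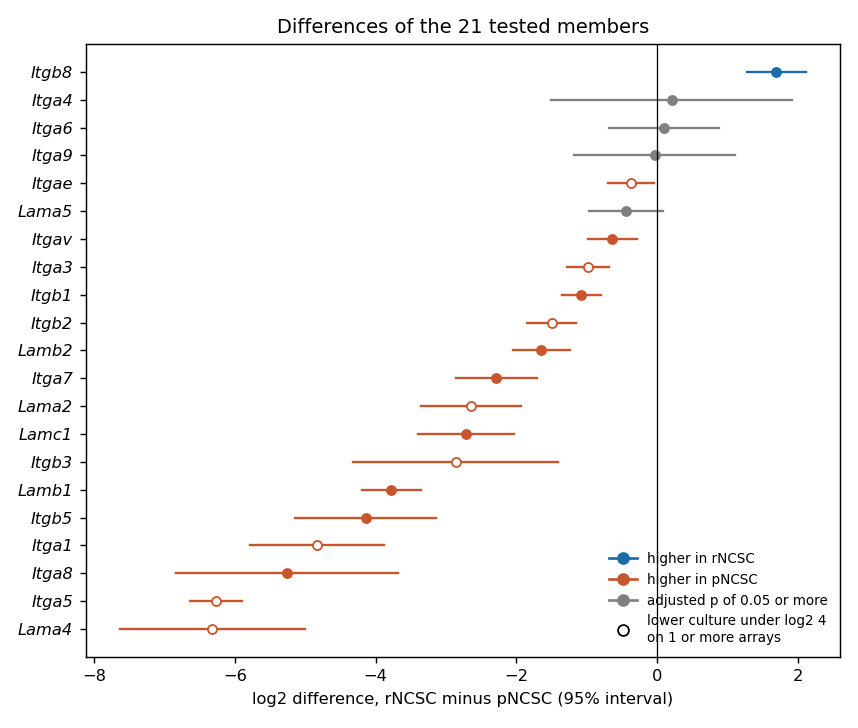
Log2 difference, rNCSC minus pNCSC, of the 21 tested genes with the 95% interval of the limma fit, and open points where the lower culture was under 4 on at least 1 array. Itgb8 is the only gene whose interval lies above 0, and the intervals of Itga4, Itga6, Itga9 and Lama5 cross 0.

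Genes with several probe sets allowed a check within the arrays. Of 12 members with several tested probe sets, 7 (Itga1, Itga5, Itga8, Itgav, Itgb5, Lama4 and Lamb1) were higher in pNCSC on each of them, Itgb1 on some, and 0 had probe sets that passed in opposite directions. The size varied between probe sets of a gene. On the measured values, some of them under 4 in rNCSC, Lama4 differences ran from -6.32 to -2.03, those of Itga5 from -6.27 to -2.82, those of Itga1 from -4.84 to -2.56 and those of Itgav from -1.99 to -0.64, while the Itga6 probe sets gave 0.10 and 0.18.

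Single arrays stood out for some members. On pNCSC replicate 1, Itga9, Itgb3 and Lama2 lay at least 1 log2 unit from the mean of the other pNCSC arrays, 3 of 21 members against 5.85% of all tested genes. On rNCSC replicate 2 the same held for Itga1, Itga4, Itga8, Itgb5 and Lama4, 5 of 21 against 4.27%, on rNCSC replicate 3 for Itga4, Itga8 and Itgb5, 3 of 21 against 1.86%, and on rNCSC replicate 1 for Itga4 and Lama4, 2 of 21 against 3.36%. On pNCSC replicates 2 and 3 it held for Itgb3 alone, against 2.55% and 1.70%. The rNCSC replicate 2 array was the highest of its group for 12 of the 21 members and for 29.7% of all tested genes. Without any single array, 16 of the 17 calls were still made wherever the gene was tested, Itgae being the exception. Itga5, Itgb2, Itgb3 and Lama2 were no longer tested when any pNCSC array was left out and the filter was applied again.

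Receptors need both subunits, so the subunits were read as pairs from a textbook list of 24 integrin pairs, written after the values had been seen. The list counts transcripts and shows no protein or surface receptor. Of 22 pairs with both genes measured, 7 had both at 4 or more on all 3 rNCSC arrays: alpha6, alpha7, alpha8 and alpha9 with beta1, and alphaV with beta1, beta5 and beta8. In pNCSC the same 7 did so, and with them alpha1, alpha3, alpha4 and alpha5 with beta1 and alphaV with beta3, 12 pairs in all. Several of these counts rest on values close to the level or on 1 array. The alpha7 pair counts in rNCSC on Itga7 values of 4.01 to 4.20. The alpha3 pair misses there on 1 array, with Itga3 at 3.92, and the alpha4 pair on 1 array, with Itga4 at 3.74 beside 6.23 and 6.41. Of 11 laminin trimers with all chains measured, 2 had all chains at 4 on every rNCSC array, alpha5 with gamma1 and either beta1 or beta2. In pNCSC there were 6, the additional ones having alpha2 or alpha4 in place of alpha5.

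Other genes of integrin adhesion were taken from 3 lists, chosen with earlier results of these data known, and are described by count and median only. In the adhesion machinery, the cytoplasmic proteins that link integrins to actin and signalling, 43 of 45 measured genes were tested, 10 were higher in rNCSC, 23 were higher in pNCSC and 10 did not pass. The median difference was -0.58, or -0.56 with arrays under 4 set to 4 and -0.55 over the measured values of all 45 genes. Fyn, a Src family kinase of neurons and glia, led the rNCSC side at 12.66, 12.37 and 12.64, against 8.10, 7.42 and 7.45 in pNCSC, a 29.9-fold difference (4.90, SE 0.21, limma adjusted p = 2.5e-06). Enah, an actin regulator of growth cones, was 3.61-fold higher, the adaptor Crkl 2.76-fold and Tln2, talin 2, 2.29-fold. On the pNCSC side stood Dab2, an endocytic adaptor of integrins (43.3-fold), and the focal adhesion proteins Tes (at least 29.9-fold), Pdlim7 (at least 19.2-fold) and Tns2 (at least 14.9-fold). The smallest differences were those of Rasgrp2 (0.07, 95% interval -0.79 to 0.93) and Crk (-0.08, 95% interval -0.34 to 0.19). Core genes were also looked up for their role after the values had been seen. Pxn, the scaffold paxillin, was 9.34-fold higher in pNCSC, and Fermt2, the kindlin that activates beta1 integrins, was 1.35-fold higher in rNCSC, a small difference between tight groups. Ilk, integrin-linked kinase, did not pass (0.12, 95% interval -0.18 to 0.43). Tln1, talin 1, was 4.03-fold higher in pNCSC on its brightest probe set, and the mean of its probe sets turned the direction (0.28, adjusted p = 0.0877).

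Of the basement membrane partners, 26 of 34 measured genes were tested, 4 were higher in rNCSC, 20 were higher in pNCSC and 2 did not pass, with a median difference of -2.47. The 4 rNCSC genes were Smoc1, a secreted calcium-binding matrix protein (9.15, 9.27 and 9.74 against 3.87, 3.92 and 3.89 in pNCSC, at least 41.9-fold), Ntn4, a netrin that binds laminin gamma1 (at least 13.6-fold, at least 23.5-fold without rNCSC replicate 1), Agrn, agrin (4.87-fold), and Ntn1, netrin 1 (4.05-fold). The network collagens Col4a1 and Col4a2 were higher in pNCSC, at least 206-fold (at least 317-fold without rNCSC replicate 2) and at least 145-fold. Col18a1, a basement membrane collagen, was at least 544-fold higher there and Plec, the plakin of hemidesmosomes and other junctions, at least 143-fold. Dag1, the laminin receptor dystroglycan, did not pass (-0.37, 95% interval -0.80 to 0.06), nor did Col4a5 (0.11, 95% interval -1.14 to 1.36). The nidogens, which join laminin to collagen IV and were looked up for that role, were both higher in pNCSC. Nid1 measured 4.34, 7.52 and 5.26 in rNCSC and 13.18, 12.65 and 12.66 in pNCSC, 139-fold higher, and 86.9-fold without rNCSC replicate 1 or 262-fold without replicate 2. Nid2 was 7.75-fold higher. Cd151, a tetraspanin that sits with alpha3 and alpha6 integrins, also looked up, was 4.33-fold higher in pNCSC.

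Of the other integrin ligands, 30 of 38 measured genes were tested, 1 was higher in rNCSC, 26 were higher in pNCSC and 3 did not pass, with a median difference of -4.34. With arrays under 4 set to 4 the median was -3.77, and over the measured values of all 38 genes it was -2.49. The same medians over all genes of the arrays were 0.12 and 0.01. The rNCSC gene was Tnc, tenascin C, at 12.94, 12.72 and 13.24 against 11.50, 10.79 and 10.08 in pNCSC, 4.52-fold higher. Among the genes higher in pNCSC, 14 were under 4 on all rNCSC arrays and entered the test through their pNCSC values alone. Leading them were the collagens Col3a1 (at least 1411-fold) and Col1a2 (at least 556-fold), the matricellular Ccn3 (at least 232-fold) and periostin, Postn (at least 204-fold). Adam9 (-0.00, 95% interval -0.30 to 0.29) and Fbn2 (0.15, 95% interval -0.33 to 0.63) had the smallest differences. Fn1, the fibronectin ligand of the alpha5 pair, was looked up for its role. It measured 4.81, 7.01 and 6.16 in rNCSC and 13.38, 14.36 and 13.77 in pNCSC, 230-fold higher in pNCSC and 152-fold without rNCSC replicate 1. Npnt, nephronectin, a ligand of the alpha8 pair, did not pass (0.63, 95% interval -0.50 to 1.76), but passed for rNCSC without pNCSC replicate 1 (1.17, adjusted p = 0.00567). The genes of the 3 lists that are given with a fold had limma adjusted p-values from 3e-08 (Col1a2) to 0.00668 (Fermt2). On all 3 lists the share that passed (76.7%, 92.3% and 90.0%) stood beside 73.3% of all tested genes. By direction, 40.2% of all tested genes were higher in rNCSC and 33.1% higher in pNCSC.

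**Figure D5:**
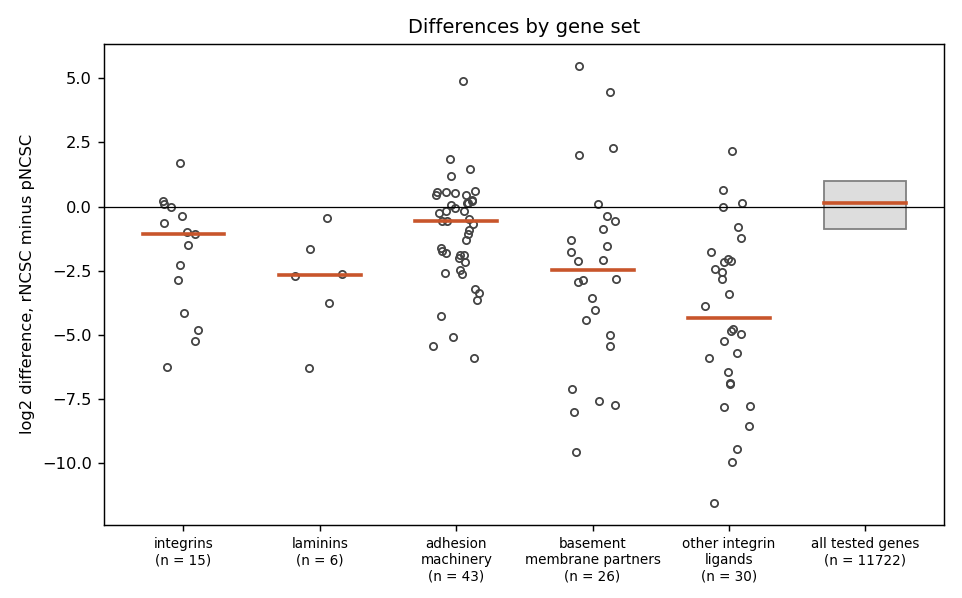
Log2 difference, rNCSC minus pNCSC, of each tested gene in the member families and the 3 lists, with bars at the medians and a box from -0.88 to 0.98 for the middle of all 11722 tested genes. The medians run from -0.58 for the adhesion machinery to -4.34 for the other integrin ligands, below the all-gene median of 0.12. They are of measured values, some under 4. With arrays under 4 set to 4, these medians were -0.56 and -3.77.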

How the data were processed

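Labelled RNA (500 ng of total RNA per array) was hybridised to Affymetrix arrays, per the labels' protocols. The values deposited by the authors are log2 expression values of 45101 probe sets on 6 arrays, and the submitters' processing notes name GCRMA, with no version. That they are log2 was taken from their range of 1.22 to 15.58. Array medians were 4.01 to 4.04, so a shift shared by most genes would not be visible. The number of arrays, 3 per culture, limits the precision.

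Groups were taken from the sample titles. Probe sets with 1 symbol in the platform annotation were used (34958; 932 with several symbols and 9211 unnamed were left out). The members lay on 73 probe sets, and the probe set with the highest mean stood for each gene. Differences between the cultures were taken within a probe set. The marker sums add levels of different probe sets, and the pair and trimer counts hold them to the same level of 4. Differences were tested with limma 3.58.1 (lmFit, eBayes; R 4.3.3), two-sided and with no covariate, on genes reaching log2 4 on at least 3 arrays, with Benjamini-Hochberg adjustment over all 11722 and a threshold of 0.05. With 3 arrays on each side, the smallest p of an exact permutation test is 0.1. "At least" marks folds computed with arrays of the lower culture under 4 set to 4. The adjusted p is that of the measured values. A difference given with an SE is also that of the measured values, and can exceed the "at least" fold beside it. Errors are SDs over arrays or moderated standard errors. The step was checked on simulated data.

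The members and lists were chosen with earlier results of these data known. Named from each list were, per direction, the 4 called genes without overlap that differed most, and the 2 tested genes that differed least. Genes looked up for their role fall outside that rule. Alternatives covered the filter, probe set choice, rescaling, array weights, variance prior, a replicate block, dropping each array and a floor of 3 for folds. Protein sequences were not used here.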

Additional observations from a re-analysis of the deposited data

How the results depend on the processing

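Across 24 alternative settings, 459 of 477 member values kept their direction and side of the threshold, 18 changed in Itga4, Itgae and Lama5, and 0 reversed. Calls over all genes ranged from 6761 (filter at 6) to 9728 (no filter), against 8596. With no filter or a filter at 3, 1 laminin, Lama1, passed as higher in rNCSC, with all arrays under 4. With a filter at 6, 9 members were not tested, and 4 alpha and 2 beta subunits were higher in pNCSC. With array weights, 2 other integrin ligands were higher in rNCSC, Npnt (1.16) being added. The weight of pNCSC replicate 3 was 5.30, against 0.30 for pNCSC replicate 1 and 0.69 for pNCSC replicate 2. Among the genes of the lists, Tln1 reversed with the mean of its probe sets (0.28).

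When each array was left out in turn, alpha subunits higher in rNCSC ranged from 0 to 1 and beta subunits higher in pNCSC from 2 to 4. Basement membrane partners higher in rNCSC ranged from 2 to 4, and other ligands from 1 to 2 higher in rNCSC and 12 to 26 higher in pNCSC. The lowest values came where genes were filtered again on the 5 arrays, still at 3 arrays.

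The replicate numbers are shared by the titles of both cultures. Deviations from the group means correlated at 0.0352, -0.0414 and -0.0312 between arrays of the same number, so the numbers were not taken to pair them. With the replicate block, the count of all genes called was 8166, and Itgae was lost (adjusted p = 0.0691), the only member call to change. Values near or under 4 carry little signal over background, which limits Itga3, Itga7, Itgae and Itgb2. Folds computed with a floor of 3 instead of 4 grew by more than the replicate spread for Itga5, Itgb2 and Lama2 among the members.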
